A study of Drosophila melanogaster with 72 samples.

Results

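Neuropeptide precursor genes encode the proteins from which neurons and endocrine cells cut their peptide signals. The set followed here was a list of 38 symbols of neuropeptide and peptide hormone precursors, from which insulin-like peptides and Akh had been left out. It resolved to 37 genes of the 13898 listed for Drosophila melanogaster brains, because Hug and hug are 1 gene and spab is listed under an older symbol. RNA came from whole brains in 72 libraries, 3 for each of 24 groups, and each library was a pool of 15 brains. Flies of iso31, a white-eyed isogenic strain, were shaken at random intervals by a vortexer over the last 3, 6 or 12 h before dissection at ZT0 (zeitgeber time, hours after lights on), or were left undisturbed at 25 °C and dissected at ZT0, 4, 8, 12, 16 and 20. The remaining groups came from lines in which GAL4, a transcription factor, drives transgenes in chosen neurons. The group called TrpA1 29C carried GAL4 and UAS-TrpA1, a heat-activated cation channel, and was shifted to 29 °C, a temperature at which the channel opens. The group called GAL4 control 29C had the same heat shift without UAS-TrpA1, and the group called TrpA1 21C had both transgenes but stayed at 21 °C. The lines R21H11, R65H02, HC (hot cell) and R60F09 are wake-promoting per the labels, with a heat shift of 3 h that ended at ZT0. The line R85C10 is sleep-promoting per the treatment protocol, with a daytime shift of 12 h that ended at ZT12, although its titles speak of sleep deprivation. Shaken and undisturbed iso31 flies belong to separate experiments in the labels, so any difference between those experiments is part of each shaken-against-undisturbed value.

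Neuropeptides are made as long precursors in the secretory pathway, cut at pairs of basic residues by prohormone convertases, trimmed, and often amidated at the C terminus. They are packed in dense core vesicles, released upon strong activity, and act mostly through G protein-coupled receptors on nearby or distant cells. In the fly brain, peptides of the clock network time rest and activity, others tune sleep, arousal and feeding, and others are released into the blood as hormones for moulting, water balance and stress.

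The precursors spanned a wide range of abundance. On the TPM scale, which corrects for transcript length and so allows genes to be compared, 23 of 37 members had a mean of at least 100 TPM over the 72 libraries, 4 had 15 to 100 TPM and 10 had less than 15 TPM. Ms, the precursor of myosuppressin, a peptide that relaxes visceral muscle and heart, led with a mean of 1053 TPM and a library range of 624 to 1612 TPM. Orcokinin followed with 887 TPM, and Pdf, which encodes pigment-dispersing factor, the main output peptide of the ventral lateral clock neurons, with 878 TPM. The next were Dsk (drosulfakinin, a satiety peptide related to cholecystokinin) with 543 TPM, Capa (capability, a regulator of water balance) with 531 TPM and Hug (hugin, which links feeding and locomotion) with 523 TPM. The 5 most abundant precursors held 39.2% of the TPM of all 37. Summed over the 37 genes, a library held 7175 to 13254 TPM. Lk (leucokinin), FMRFa, CCHa1 and CCHa2 formed the middle class with 87.9, 67.6, 46.3 and 32.8 TPM. The low class held Eh (eclosion hormone), CCAP (crustacean cardioactive peptide), RYa, AstCC, CNMa, Nplp3, Nplp4, ETH (ecdysis-triggering hormone), Pburs and Burs. The bursicon subunits Burs and Pburs, which tan the cuticle after moulting, were at 0 counts in 70 and 56 of the 72 libraries. ETH, Nplp4, Burs and Pburs passed the low-count filter of no comparison, so that 33 members were tested somewhere.

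**Figure D1:**
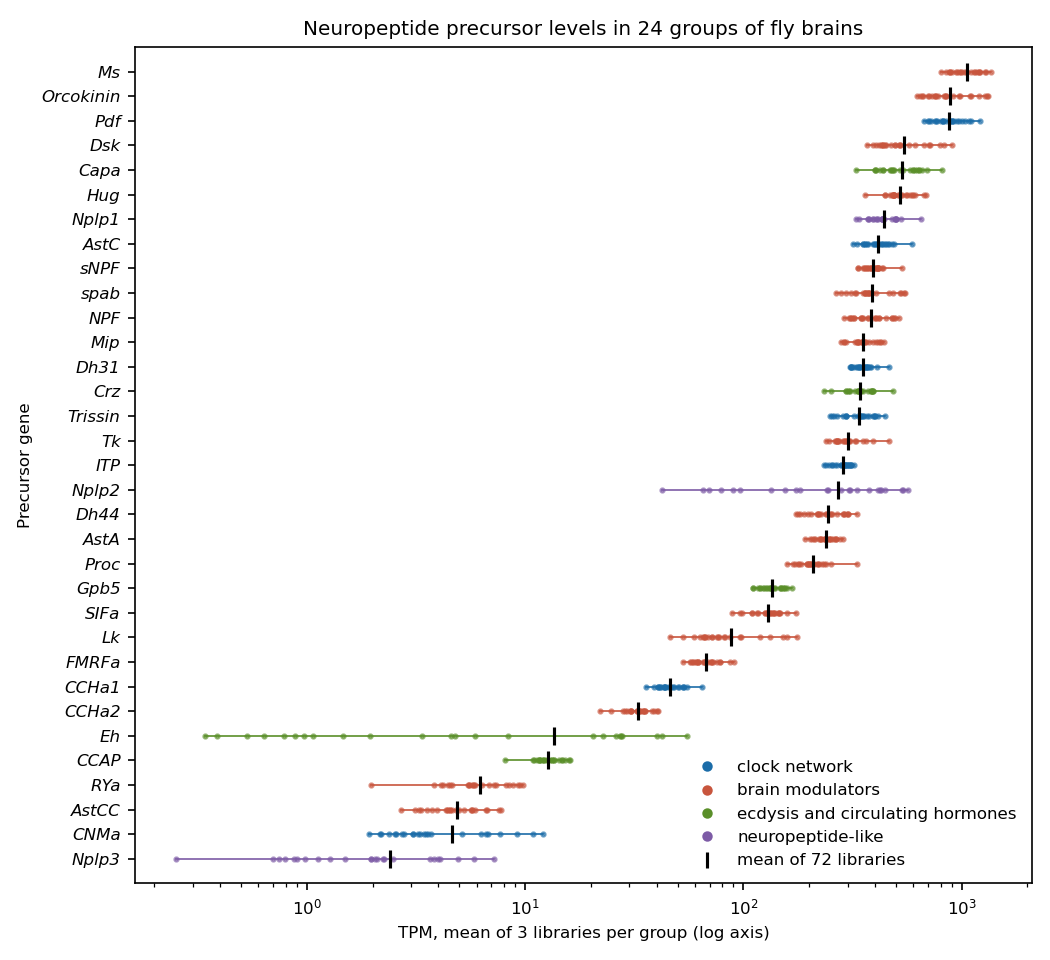
Level of the 33 members that were tested, in TPM on a log axis. Each dot is the mean of 3 libraries of 1 group, lines join the lowest and highest of the 24 group means, and black ticks mark the mean over 72 libraries. Ms leads with 1053 TPM, and Nplp2, Nplp3 and Eh spread widely between groups.

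Levels of several precursors differed little between groups. Group means on the scale of TMM-scaled CPM, which serves to compare 1 gene between libraries, differed by 1.61 times between the highest and lowest group for sNPF, the short neuropeptide F precursor, by 1.66 times for AstA (allatostatin A) and by 1.69 times for Dh31 (a calcitonin-like diuretic hormone). Nplp2, Nplp3 and Eh spread much more. Nplp3, with 12 libraries at 0, had group means between 0.0429 CPM after 12 h of shaking and 1.13 CPM at ZT8. Eh, described last, had group means between 0.0945 CPM at ZT12 and 13.3 CPM in R21H11 TrpA1 21C, and no ratio is given because some of its libraries were at 0. Nplp2 differed by 18.5 times between R21H11 TrpA1 29C at 90.1 CPM and R85C10 GAL4 control 29C at 4.87 CPM. Its libraries also differed within groups. They held 10.1, 115 and 105 CPM after 3 h of shaking and 9.99, 10.5 and 24.9 CPM in undisturbed ZT0 brains. The pooled SD of Nplp2 between replicates was 1.11 on the log2 scale, against 0.08 for sNPF. CNMa ranged 6.52 times and Lk 5.18 times between groups.

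Total counts ran from 4175587 to 13435817 per library, with a median of 8437310. Neuron markers (elav, nSyb, Syt1, brp and para) summed to 5460 to 11408 CPM and glial markers to 2336 to 4185 CPM. Corpora cardiaca RNA, read from Akh, varied between 0 and 83.1 CPM, and fat body markers between 184 and 3287 CPM. TrpA1 RNA was at 12.0 to 314 CPM in libraries labelled TrpA1, at 9.93 to 14.9 CPM in GAL4 controls and at 6.42 to 11.7 CPM in iso31. Between TrpA1 29C and TrpA1 21C, which share the genotype, its level differed in some lines. In R85C10 it was lower in TrpA1 29C, at 137.0, 127.5 and 139.7 CPM against 307.8, 313.9 and 294.3 CPM. In HC and R60F09 it was higher in TrpA1 29C without overlap, and in R21H11 and R65H02 the groups overlapped. TrpA1 RNA separated the TrpA1 groups from the GAL4 control in every line but HC. There GAL4 control 29C had 13.8, 9.93 and 10.8 CPM and TrpA1 21C had 15.8, 12.0 and 13.6 CPM. The gene w, a marker carried by many fly transgenes, separated these groups, with 4.04, 4.41 and 2.67 CPM in HC GAL4 control 29C and 15.3, 19.7 and 20.4 CPM in HC TrpA1 21C. Replicates are pools of brains, and nothing in the labels says that they came from separate cultures, so p-values measure the spread between these pools. In whole-brain RNA, fewer cells that make a peptide and less precursor RNA per cell cannot be told apart. Members and other genes differed in transcript length. Relative length, read for each gene by dividing its estimated count by its TPM, had a log2 median of -1.16 over 31 members against -0.08 over the 9288 genes with at least 1 TPM, and 28 of the 31 were shorter than that median gene. Counts below are therefore also given with an offset that removes the trend on length from every library.

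Shaking was compared with undisturbed ZT0 to ask which precursors change when sleep is lost to mechanical stimulation. All 31 tested members had a log2 change above 0 at all of 3, 6 and 12 h. These contrasts share the same undisturbed ZT0 libraries, so they are not independent. The summed TPM of all members at undisturbed ZT0, with a mean of 8211, was also the lowest of the 24 groups. The shaken groups had means of 9531, 10094 and 10162 TPM, within the 9034 to 10256 TPM of the other undisturbed times. In edgeR's quasi-likelihood test with adjusted p under 0.05, 9, 21 and 15 of them rose at 3, 6 and 12 h and 0 fell. Among all 8845 genes tested, 11.5%, 23.7% and 9.12% rose, and 23.6%, 46.1% and 16.3% were called in either direction. The median log2 change of the members was 0.42, 0.64 and 0.47, against 0.03, 0.03 and 0.01 over all genes. With the length-trend offset, 3, 8 and 6 members rose and 0 fell, against 2.5%, 7.39% and 1.15% of all genes that rose, and the median change of the members was 0.11, 0.18 and 0.20. Neuron markers moved too. They summed to 8225 to 8339 CPM at 3 h, 7011 to 7464 CPM at 6 h and 8507 to 8920 CPM at 12 h, below the 9799 to 9909 CPM of undisturbed ZT0. Akh stood at 22.6 to 56.6 CPM at 3 h, 0.43 to 21.9 CPM at 6 h and 0.77 to 83.1 CPM at 12 h, against 0.09 to 1.99 CPM in undisturbed ZT0. Haemocyte markers summed to 474 to 772 CPM at 3 h, 235 to 313 CPM at 6 h and 367 to 514 CPM at 12 h, against 534 to 900.0 CPM in undisturbed ZT0. Glial markers summed to 2850 to 2996 CPM at 3 h, 2336 to 2660 CPM at 6 h and 2534 to 2899 CPM at 12 h, against 2947 to 3105 CPM in undisturbed ZT0, so that the libraries of 6 and 12 h lay below the undisturbed ones in both lists. The part of these markers in the precursor values was not tested.

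Among brain modulators of sleep, arousal and feeding, 8, 12 and 8 of the 18 tested members rose at 3, 6 and 12 h. NPF, the fly relative of neuropeptide Y with roles in feeding and arousal, had 53.6, 50.4 and 52.9 CPM in undisturbed ZT0 libraries, 92.0, 83.1 and 84.5 CPM after 3 h, 91.4, 99.1 and 105 CPM after 6 h, and 86.5, 107 and 83.3 CPM after 12 h. Every shaken library lay above every undisturbed ZT0 library. The log2 change was 0.72 ± 0.09 at 3 h, 0.88 ± 0.09 at 6 h and 0.82 ± 0.09 at 12 h (± SE; adjusted p = 0.000108, 1.36e-06 and 0.00024). With the length-trend offset it was 0.26, 0.14 and 0.35, and the call at 6 h was lost (adjusted p = 0.157).

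Hug had 120.3, 153 and 164 CPM in undisturbed ZT0 libraries, 247, 211 and 296 CPM after 3 h, 324, 314 and 349 CPM after 6 h, and 262, 276 and 269 CPM after 12 h. The shaken libraries all lay above the undisturbed ones, those of 3 and 12 h overlapped, and the 6 h libraries were the highest. Its log2 change of 1.15 ± 0.13 at 6 h (SE; adjusted p = 3.7e-05) was larger than that of any other member past the threshold there. The offset left 0.73 at 6 h (adjusted p = 0.00412) and 0.65 at 12 h (adjusted p = 0.0386), while 0.52 at 3 h no longer passed (adjusted p = 0.0517).

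The gene spab, a peptide precursor found by genome annotation, had 148, 138 and 148 CPM in undisturbed ZT0 libraries, 229.5, 221 and 240.2 CPM after 3 h, 209, 254 and 249 CPM after 6 h, and 208, 240.3 and 186 CPM after 12 h. All 9 shaken libraries were higher than all 3 undisturbed ones. It rose by 0.66, 0.69 and 0.55 on the log2 scale (SE 0.09 each; adjusted p = 0.000237, 2.15e-05 and 0.00206), and its calls at 3, 6 and 12 h remained with the length-trend offset, with 0.46, 0.33 and 0.35.

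AstA, an inhibitory peptide that favours satiety and sleep, had 138, 129 and 122 CPM in undisturbed ZT0 libraries, 188, 151 and 191 CPM after 3 h, 187, 189 and 195 CPM after 6 h, and 178, 201 and 169 CPM after 12 h. The shaken libraries again lay above the undisturbed ones without overlap. Its log2 change was 0.44, 0.53 and 0.49 (SE 0.08 each; adjusted p = 0.0021, 0.000131 and 0.00262). The calls remained with the offset, at 0.26, 0.22 and 0.32 (adjusted p = 0.0446, 0.0362 and 0.0306).

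Among the other modulators, Ms and Mip (myoinhibitory peptide, which stabilises sleep) rose at all 3 durations, with log2 changes of 1.13 and 0.62 at 6 h. SIFa, made in a few neurons of the pars intercerebralis, and Lk rose at 3 and 6 h, by 0.49 and 0.73 at 6 h. Proc (proctolin, a muscle-contracting peptide) and sNPF rose at 6 and 12 h, with 0.59 and 0.24 at 6 h. CCHa2 and Orcokinin rose at 6 h, by 0.63 and 0.78, and no difference among durations was called for them (adjusted p = 0.275 and 0.615). For SIFa the length-trend offset gave -0.30 at 6 h (adjusted p = 0.143), and for Lk 0.05. For sNPF, whose transcript is not short, it left 0.27 (adjusted p = 0.00284). Mip and Proc also remained called at 6 h, with 0.34 and 0.47 (adjusted p = 0.0133 and 0.0145). Ms, CCHa2 and Orcokinin did not pass at 6 h with the offset, where they had 0.65, 0.26 and 0.05 (adjusted p = 0.0525, 0.253 and 0.925).

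Dh44, Tk and FMRFa did not pass at any duration. Dh44, a relative of corticotropin-releasing factor that carries clock output from the pars intercerebralis, had 267, 262 and 273 CPM in undisturbed ZT0 libraries, 297, 257 and 287.5 CPM after 3 h, 284.5, 259.9 and 293.5 CPM after 6 h, and 255.5, 283 and 292 CPM after 12 h. These groups overlapped, and the log2 change at 6 h was 0.04 ± 0.07 (SE; adjusted p = 0.687). Tk, the tachykinin precursor, had a log2 change of 0.15 ± 0.08 at 6 h (SE; adjusted p = 0.134). FMRFa had 0.27 at 6 h (adjusted p = 0.138).

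**Figure D2:**
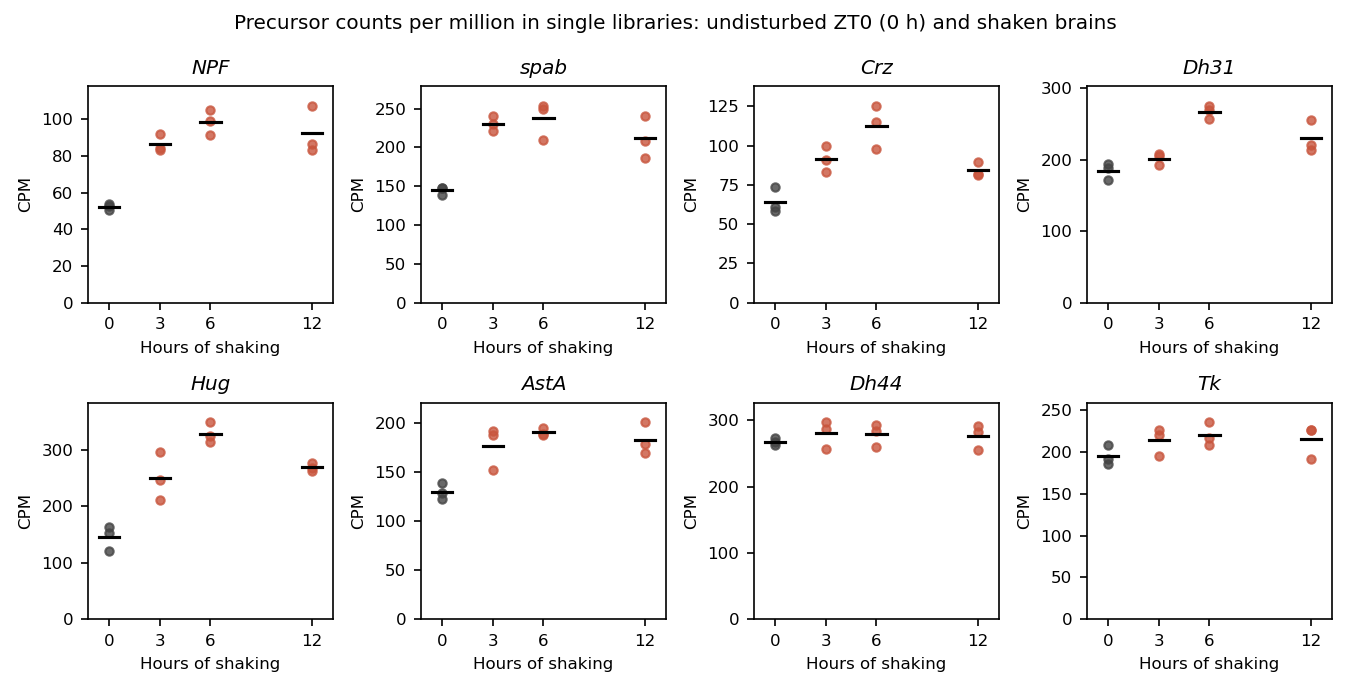
CPM of 8 precursors in each library of undisturbed ZT0 brains (0 h, grey) and of brains shaken for 3, 6 and 12 h (red); bars are means of 3 libraries and axes start at 0. NPF, spab, Hug and AstA show no overlap between shaken and undisturbed libraries, whereas Dh44 and Tk overlap.

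In the clock network, 0, 6 and 3 of 7 members rose at 3, 6 and 12 h. Dh31, a wake-promoting peptide of dorsal clock neurons, had 194, 189 and 171 CPM in undisturbed ZT0 libraries, 205, 192 and 207.5 CPM after 3 h, 256, 270.1 and 276 CPM after 6 h, and 220.2, 255.5 and 214 CPM after 12 h. The 3 h libraries overlapped with undisturbed ones, and the 6 h libraries were the highest. Its log2 change was 0.12 ± 0.07 at 3 h, 0.51 ± 0.07 at 6 h and 0.32 ± 0.07 at 12 h (± SE; adjusted p = 0.223, 2.38e-05 and 0.00762). With the offset the call at 6 h remained at 0.19 (adjusted p = 0.0193) and that at 12 h was lost (adjusted p = 0.209). Pdf had 165, 138 and 163 CPM in undisturbed ZT0 libraries, 252.5, 187 and 241 CPM after 3 h, 256, 279 and 295 CPM after 6 h, and 239, 295 and 179.6 CPM after 12 h. All shaken libraries were above the undisturbed ones, but they spread widely at 12 h. Pdf rose by 0.81 ± 0.18 at 6 h and 0.62 ± 0.18 at 12 h (± SE; adjusted p = 0.00541 and 0.0491), and with the offset these were 0.16 and 0.21 and no longer passed. Trissin rose at 6 and 12 h, by 0.96 and 0.73. ITP (ion transport peptide), AstC and CCHa1 rose at 6 h, by 0.48, 0.64 and 0.57. With the offset ITP remained called, at 0.35 (adjusted p = 0.0375), while Trissin had 0.18 at 6 h and 0.23 at 12 h (adjusted p = 0.448 and 0.505), AstC 0.28 (adjusted p = 0.293) and CCHa1 0.06 (adjusted p = 0.851), and these were no longer called. CNMa had 0.51 at 6 h without it (adjusted p = 0.229).

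SIFa, ITP, Lk and CCAP overlap a gene on the opposite strand in the Ensembl annotation, and no source says that counting used strand, so reads of such pairs cannot be told apart. Of the hormones, 4 of 8 were tested and 1, 3 and 3 rose at 3, 6 and 12 h. Crz (corazonin, a stress and metabolic hormone) had 73.8, 58.1 and 60.8 CPM in undisturbed ZT0 libraries, 99.8, 83.4 and 90.9 CPM after 3 h, 125, 115 and 97.5 CPM after 6 h, and 81.8, 89.8 and 81.0 CPM after 12 h. Shaken libraries were higher than undisturbed ones throughout, the durations overlapped, and 2 of the 6 h libraries were the highest. Its log2 change was 0.50 ± 0.10, 0.79 ± 0.10 and 0.39 ± 0.10 (± SE; adjusted p = 0.0032, 2.18e-05 and 0.0204), but with the length-trend offset it was 0.09, 0.14 and -0.01 and passed at no duration. CCAP and Gpb5, a subunit of a glycoprotein hormone, rose at 6 h by 1.13 and 0.85 and at 12 h by 0.90 and 0.53. None of these 4 calls was left with the offset, which gave 0.53 and 0.54 for CCAP (adjusted p = 0.252 and 0.422) and 0.205 and 0.12 for Gpb5 (adjusted p = 0.161 and 0.61) at 6 and 12 h. Capa had a log2 change of 1.05 at 6 h (adjusted p = 0.11). Of the neuropeptide-like precursors, Nplp1 rose at 12 h by 0.18 (adjusted p = 0.0499; 0.115 with the offset), and Nplp2 had 2.32 ± 0.95 at 3 h (SE; adjusted p = 0.119).

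The shaken groups were compared with each other, without the undisturbed libraries, to ask whether the durations differ. Differences were called for 3 of 31 members, Dh31 (adjusted p = 0.00387), Crz (adjusted p = 0.0327) and Lk (adjusted p = 0.0498), against 15.8% of all genes. In each of the 3 the mean at 6 h was the highest, with 202, 267 and 229.9 CPM for Dh31, 91.4, 113 and 84.2 CPM for Crz and 17.4, 21.9 and 15.4 CPM for Lk at 3, 6 and 12 h. Once the length trend was removed, Dh31 alone was called (adjusted p = 0.0271), against 2.68% of all genes.

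Undisturbed brains were compared over the day to ask which precursors vary with zeitgeber time. The test of any difference among the 6 times had no term for replicate number. In it, 8 of 32 tested members passed, or 25.0%, against 15.1% of 9242 genes. They were CNMa, NPF, Lk, spab, Dh44, Dsk, Proc and SIFa. CNMa, the CNMamide precursor found in dorsal clock neurons, had the smallest p. It had 1.85, 2.44 and 2.15 CPM at ZT0, 2.08, 1.23 and 2.17 CPM at ZT4, 4.26, 5.72 and 4.63 CPM at ZT8, 7.21, 9.12 and 7.42 CPM at ZT12, 9.15, 8.32 and 8.18 CPM at ZT16, and 5.77, 5.51 and 4.76 CPM at ZT20. Every library from ZT8 to ZT20 was above every library of ZT0 and ZT4, and the early night was highest (adjusted p = 1.96e-06). The counts behind these values are low, with at most 100 per library, but CNMa passed in every alternative fit run, also without ZT20. The line groups were not part of this test. Their group means stood at 4.70 to 6.10 CPM in R85C10, dissected at ZT12, and at 1.31 to 3.00 CPM in the lines dissected at ZT0. R85C10 also differs from those lines in its driver and, in the heated groups, in the length of the shift, which cannot be told apart from time.

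Dh44 had 267, 262 and 273 CPM at ZT0, 318, 346 and 285 CPM at ZT4, 331, 319.7 and 314 CPM at ZT8, 319.9, 319 and 336 CPM at ZT12, 365, 279 and 289 CPM at ZT16, and 262, 264 and 259 CPM at ZT20. The libraries of ZT0 and ZT20 lay below all others (adjusted p = 0.0182; 0.0351 with the length-trend offset). Without ZT20 the call was lost (adjusted p = 0.482). Proc was lowest at ZT0, where it had 139, 149.6 and 155 CPM, against group means of 175 to 190.3 CPM at the other times, and every library of another time was above those of ZT0 (adjusted p = 0.024; 0.0249 with the offset).

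The 5 other calls came with high values at ZT20. NPF had 53.6, 50.4 and 52.9 CPM at ZT0, 68.8, 60.2 and 54.8 CPM at ZT4, 64.98, 60.1 and 57.2 CPM at ZT8, 66.0, 63.0 and 73.7 CPM at ZT12, 59.5, 74.0 and 59.0 CPM at ZT16, and 95.7, 81.5 and 87.6 CPM at ZT20. Its 3 ZT20 libraries lay above the other 15 (adjusted p = 0.00065). Lk had 13.2, 12.3 and 13.4 CPM at ZT0, 13.8, 14.1 and 11.7 CPM at ZT4, 13.0, 12.8 and 14.2 CPM at ZT8, 14.1, 12.5 and 16.3 CPM at ZT12, 15.8, 14.8 and 14.6 CPM at ZT16, and 22.8, 16.6 and 23.5 CPM at ZT20. Here too the ZT20 libraries were the highest (adjusted p = 0.0053). The gene spab had 148, 138 and 148 CPM at ZT0, 219.5, 175 and 152 CPM at ZT4, 153, 152 and 187 CPM at ZT8, 157, 171 and 176 CPM at ZT12, 165, 153 and 156 CPM at ZT16, and 238, 200.1 and 244 CPM at ZT20. Its ZT20 libraries overlapped with 1 of the ZT4 libraries (adjusted p = 0.00996). Dsk had 68.1, 57.2 and 72.3 CPM at ZT0, 85.3, 90.5 and 78.1 CPM at ZT4, 72.3, 59.1 and 87.5 CPM at ZT8, 77.0, 70.1 and 84.9 CPM at ZT12, 77.3, 68.8 and 88.1 CPM at ZT16, and 122, 92.4 and 139 CPM at ZT20. All 3 ZT20 libraries were above the other 15 (adjusted p = 0.02). SIFa had group means of 20.1 to 23.2 CPM before ZT20 and 31.0 CPM there (adjusted p = 0.0434). Without ZT20, CNMa alone of the 32 members passed. Once the length trend was removed, CNMa, Dh44 and Proc passed, against 5.16% of all genes. Neuron markers summed to 7949 to 8448 CPM at ZT20, below the 8577 to 10492 CPM of the 15 libraries of other times, and their part in these calls was not tested.

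**Figure D3:**
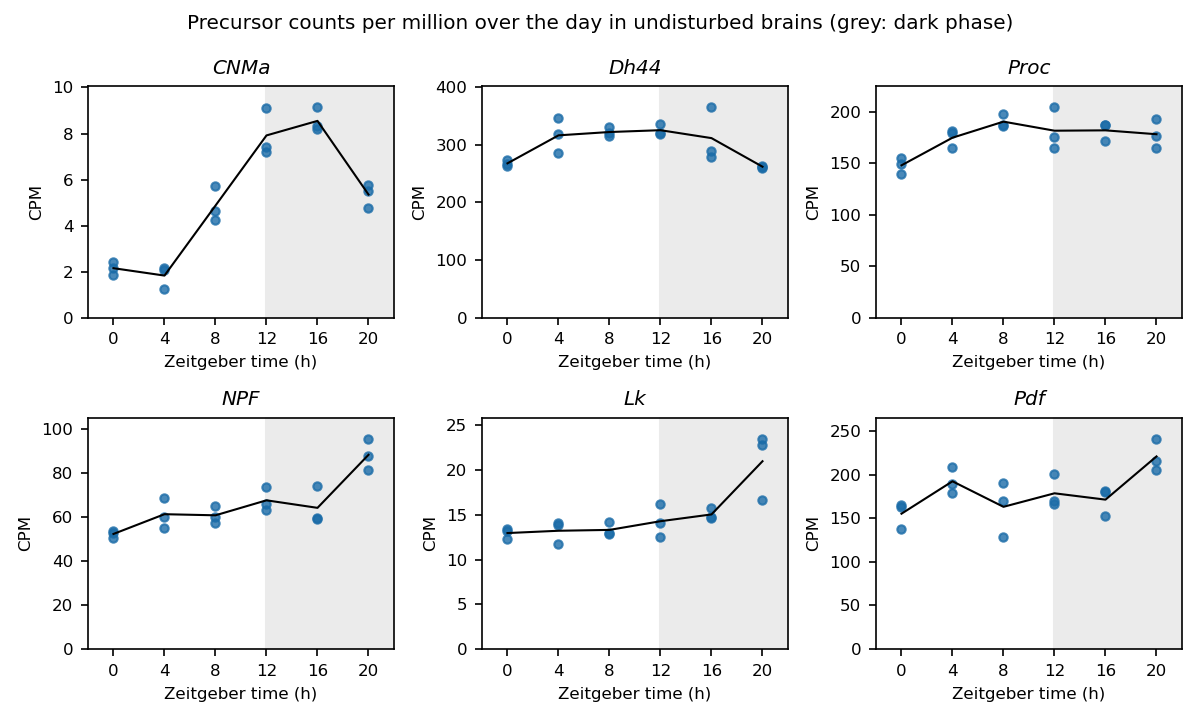
CPM of 6 precursors over zeitgeber time (hours after lights on) in undisturbed brains; dots are libraries, lines join means of 3, shading marks the hours after lights off, and axes start at 0. CNMa climbs between ZT4 and ZT16, Dh44 and Proc are lowest at the ends or at ZT0, and NPF and Lk stand out at ZT20.

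The other peptides of the clock network were not called over the day, and neither was sNPF. Pdf had group means of 155, 192.5, 163, 179, 171.5 and 221 CPM at ZT0, 4, 8, 12, 16 and 20, with the 3 libraries of ZT20 at 216, 205 and 242 CPM (adjusted p = 0.0642). Dh31 stayed between 184 and 207 CPM (adjusted p = 0.532), sNPF between 459 and 515 CPM (adjusted p = 0.464), ITP between 252 and 296 CPM (adjusted p = 0.219) and CCHa1 between 12.5 and 14.2 CPM (adjusted p = 0.96). AstC had 166 to 219.5 CPM (adjusted p = 0.375) and Trissin 40.3 to 65.2 CPM (adjusted p = 0.113). These p-values do not show that the levels were the same. In an alternative fit with a term for replicate number, Pdf and Trissin were called.

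In each line, TrpA1 29C was compared with GAL4 control 29C, which shares the temperature, and with TrpA1 21C, which shares the genotype, to ask what activity of the driven neurons does. A member was called when it passed against both with the same sign. Dh44 in R65H02 and Proc in R85C10 were the 2 such members, both lower. R21H11, HC and R60F09 had 0 of 31, and at unadjusted p under 0.05 against both controls with the same sign they had 0, 1 and 4. DESeq2 and limma on TPM also gave 0 in these lines. Among all genes tested, those called in this way made up 1.45% for R21H11, 17.5% for R65H02, 0.523% for HC, 0.0898% for R60F09 and 0.955% for R85C10. The mean over the 4 wake-promoting lines gave 0 of 33 members in edgeR against 10.9% of 9452 genes, 0 at unadjusted p under 0.05, 0 in DESeq2 and 2 (Dh31 and ITP) in limma on TPM.

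Against each control alone, more members were called, but mostly on opposite sides. Against GAL4 control 29C, 20 members were higher and 0 lower in R21H11 TrpA1 29C, where 25.1% of all genes were higher. In R65H02 TrpA1 29C 17 were higher and 1 lower, against 26.9% of all genes that were higher and 26.9% that were lower. In HC 0 members were called (5 at unadjusted p under 0.05, 1 in DESeq2, 0 in limma on TPM), against 0.989% of all genes. In R60F09 Eh alone was higher, against 0.146% of all genes that were higher, and in R85C10 Tk was higher and Proc lower, against 1.44% of all genes. Against TrpA1 21C, 0 members were called in R21H11 (0 at unadjusted p under 0.05, 0 in DESeq2 and in limma on TPM), against 3.03% of all genes, and 6, 19, 23 and 9 were lower and 0 higher in R65H02, HC, R60F09 and R85C10, where 16.9%, 17.6%, 22.4% and 9.27% of all genes were lower. The 2 controls of a line differed as well. In GAL4 control 29C compared with TrpA1 21C, 17, 24, 23, 20 and 15 of 31 members were lower in R21H11, R65H02, HC, R60F09 and R85C10 and 0 were higher, against 9.72%, 24.3%, 17.5%, 24.4% and 4.85% of all genes that were lower. With the length-trend offset, 7, 15, 12, 5 and 19 members were lower in GAL4 control 29C than in TrpA1 21C in these lines, against 7.03%, 20.7%, 13.7%, 16.3% and 9.67% of all genes, and 1 was higher in each of R65H02 and R60F09. In TrpA1 29C compared with TrpA1 21C the offset gave 2, 8, 14, 15 and 19 lower and 0 higher, against 5.41%, 15.5%, 17.3%, 16.6% and 12.1% of all genes that were lower. In TrpA1 29C compared with GAL4 control 29C it gave 2, 4, 0, 0 and 1 higher, against 6.4%, 16.1%, 2.35%, 0.258% and 1.31% of all genes, and 0, 5, 1, 1 and 1 lower, against 7.31%, 13.3%, 2.19%, 0.314% and 0.771%. The contrasts of a line share their groups, so these counts are not independent. Neuron markers summed to 5460 to 7855 CPM in R21H11 TrpA1 29C, 9916 to 10759 CPM in its GAL4 control 29C and 7664 to 8042 CPM in its TrpA1 21C. In R60F09 they summed to 9145 to 9517 CPM in TrpA1 29C, 9023 to 10064 CPM in GAL4 control 29C and 5969 to 7782 CPM in TrpA1 21C. Their part in the counts was not tested.

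**Figure D4:**
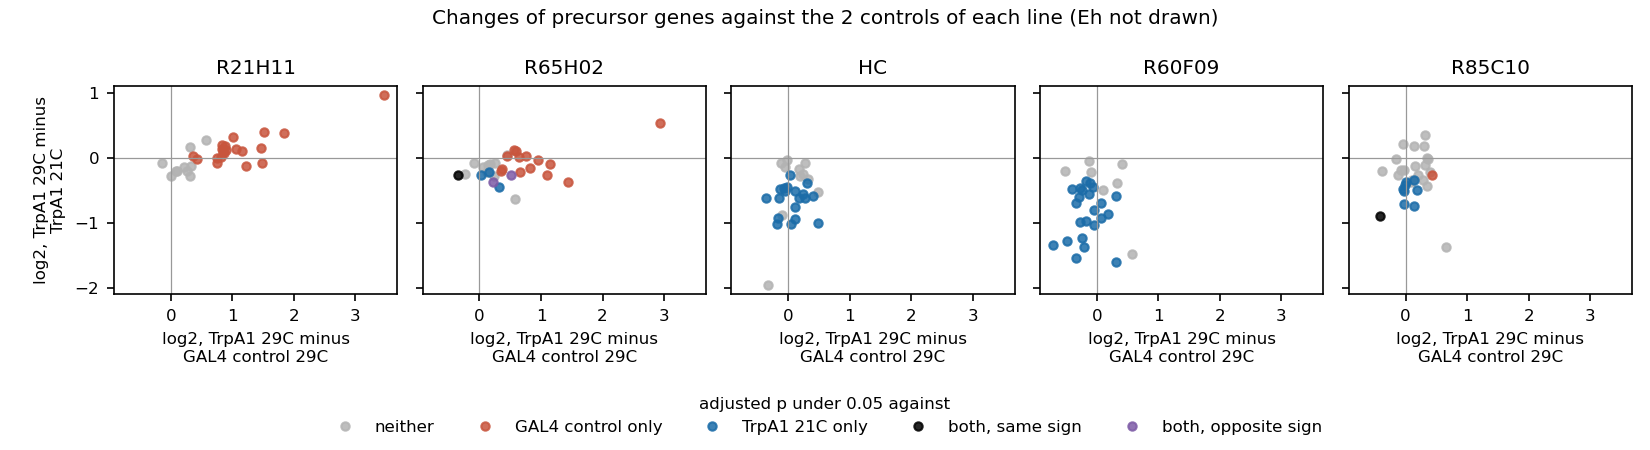
Log2 changes of the tested precursors in each line, TrpA1 29C minus GAL4 control 29C (horizontal) and TrpA1 29C minus TrpA1 21C (vertical); each dot is 1 gene, coloured by the contrasts it passed, and Eh is not drawn. Most dots lie right of 0 in R21H11 and R65H02 and below 0 in HC, R60F09 and R85C10, and the black dots are Dh44 in R65H02 and Proc in R85C10.

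In R65H02, Dh44 had 248, 234.5 and 221 CPM in TrpA1 29C, 303, 309.7 and 279 CPM in GAL4 control 29C and 326, 255.5 and 262 CPM in TrpA1 21C. All 3 TrpA1 29C libraries were below all 6 control libraries. Neuron markers in this line were also lowest in TrpA1 29C without overlap, summing to 6531 to 7298 CPM there, 10031 to 10752 CPM in GAL4 control 29C and 7504 to 8025 CPM in TrpA1 21C, and their part in the Dh44 values was not tested. Its log2 change was -0.35 ± 0.09 against GAL4 control 29C and -0.26 ± 0.09 against TrpA1 21C (± SE; adjusted p = 0.00556 and 0.047). Against TrpA1 21C it did not pass with the length-trend offset, at -0.25 (adjusted p = 0.0753), or in limma on TPM, at -0.33 (adjusted p = 0.0527), and leaving out any 1 replicate also lost the call against 1 or both controls. For Dh44 no difference between the 4 wake-promoting lines was called by the interaction test (adjusted p = 0.594 against GAL4 control 29C and 0.797 against TrpA1 21C). Its mean over the 4 lines was -0.17 ± 0.07 against GAL4 control 29C (SE; adjusted p = 0.0289) and -0.11 ± 0.07 against TrpA1 21C (SE; adjusted p = 0.197). The next member in R65H02 was Nplp2, with 84.3, 89.9 and 85.1 CPM in TrpA1 29C, 16.3, 9.48 and 6.50 CPM in GAL4 control 29C and 55.1, 70.1 and 53.8 CPM in TrpA1 21C. It was 2.93 ± 0.25 higher on the log2 scale than GAL4 control 29C (SE; adjusted p = 3.01e-05) and at 0.54 ± 0.21 against TrpA1 21C (SE; adjusted p = 0.0933).

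In R85C10, Proc had 143, 152.5 and 169 CPM in TrpA1 29C, 209.9, 216 and 197.5 CPM in GAL4 control 29C and 290.3, 291 and 291 CPM in TrpA1 21C. The 3 groups were separate, with TrpA1 29C lowest. Neuron markers overlapped here, with sums of 8257 to 10492 CPM in TrpA1 29C, 8900 to 11408 CPM in GAL4 control 29C and 10267 to 10659 CPM in TrpA1 21C. The log2 change was -0.42 ± 0.08 against GAL4 control 29C and -0.90 ± 0.08 against TrpA1 21C (± SE; adjusted p = 0.0214 and 1.59e-05), and with the length-trend offset -0.47 and -0.98 (adjusted p = 0.00165 and 6.83e-07). Leaving out replicate 1, 2 or 3 gave -0.36, -0.38 and -0.52 against GAL4 control 29C, none of which passed. Tk had 308, 255 and 247 CPM in TrpA1 29C, 202, 201 and 196 CPM in GAL4 control 29C and 341, 322 and 310.5 CPM in TrpA1 21C. It stood between its controls without overlap, higher than GAL4 control 29C by 0.44 ± 0.09 (SE; adjusted p = 0.0328) and at -0.26 ± 0.09 against TrpA1 21C (SE; adjusted p = 0.0657). With the offset Tk passed in both with opposite signs, at 0.36 and -0.37 (adjusted p = 0.0064 and 0.00095). Pdf in R85C10 had 304.5, 214 and 229 CPM in TrpA1 29C, 209, 204 and 194 CPM in GAL4 control 29C and 218, 229.5 and 208 CPM in TrpA1 21C, and the groups overlapped (adjusted p = 0.283 and 0.246).

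In the other lines the members nearest to a call are given as values. CCHa1 in R21H11 had 23.7, 30.1 and 28.2 CPM in TrpA1 29C, 16.4, 12.6 and 11.4 CPM in GAL4 control 29C and 21.3, 20.3 and 24.3 CPM in TrpA1 21C. It was 1.01 ± 0.17 higher than GAL4 control 29C on the log2 scale (SE; adjusted p = 0.00351), and at 0.33 ± 0.16 against TrpA1 21C (SE; adjusted p = 0.224). Capa in R21H11 had 179.5, 396 and 223 CPM in TrpA1 29C, 72.1, 96.0 and 110.5 CPM in GAL4 control 29C and 204, 204 and 203.5 CPM in TrpA1 21C, with log2 changes of 1.52 and 0.40 (adjusted p = 0.00365 and 0.337). SIFa was lower in TrpA1 29C than in TrpA1 21C in both HC and R60F09. In HC it had 18.1, 15.8 and 16.1 CPM in TrpA1 29C, 21.9, 19.6 and 22.7 CPM in GAL4 control 29C and 23.8, 20.7 and 32.8 CPM in TrpA1 21C (log2 -0.36 and -0.62; adjusted p = 0.329 and 0.0103). In R60F09 it had 15.7, 14.7 and 15.0 CPM in TrpA1 29C, 19.7, 19.4 and 20.3 CPM in GAL4 control 29C and 22.5, 20.2 and 21.6 CPM in TrpA1 21C (log2 -0.40 and -0.48; adjusted p = 0.372 and 0.00661). Without overlap in either line, TrpA1 29C was below both controls, but in R60F09 the value against TrpA1 21C turned to 0.33 with the length-trend offset (adjusted p = 0.139), and in HC it was -0.11 (adjusted p = 0.402). ITP in R60F09 had 202, 167 and 192 CPM in TrpA1 29C, 241, 245 and 215 CPM in GAL4 control 29C and 367, 267 and 284.5 CPM in TrpA1 21C (log2 -0.34 and -0.69; adjusted p = 0.534 and 0.00141). AstA, the next after Dh44 for the mean of the wake-promoting lines, had -0.07 and -0.21 (adjusted p = 0.427 and 0.0147).

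Dh31 was the member whose call against both controls appeared in the largest number of wake-promoting fits once the length trend was removed, which was noticed after its values were seen. With that offset its log2 change was -0.18 and -0.29 in R65H02, -0.35 and -0.30 in R60F09, and -0.17 and -0.27 in the mean of the 4 lines, against GAL4 control 29C and TrpA1 21C (adjusted p at most 0.0351). Among all genes 4.33%, 0.168% and 6.16% were lower against both controls in these 3 fits. The mean includes the libraries of R65H02 and R60F09, so the 3 fits are not independent. With the offset Dh31 was not called against both controls in R21H11 or HC. It had -0.04 and -0.12 there against GAL4 control 29C (adjusted p = 0.771 and 0.274). Against TrpA1 21C it had -0.20 and -0.26 (adjusted p = 0.161 and 0.00504). Pdf (which also passed in R65H02), AstA and Mip were called lower in the mean of the 4 lines in the same fit, at -0.25, -0.29 and -0.15 against GAL4 control 29C. Without the offset, Dh31 stood at 0.12 ± 0.08 in R65H02 and -0.28 ± 0.11 in R60F09 against GAL4 control 29C (± SE; adjusted p = 0.251 and 0.551). Its levels were 196, 212 and 225 CPM in R65H02 TrpA1 29C against 193, 189 and 197 CPM in GAL4 control 29C and 259, 214 and 265 CPM in TrpA1 21C. In R60F09 they were 173, 154 and 158 CPM in TrpA1 29C, 199, 206.5 and 179 CPM in GAL4 control 29C and 273, 258 and 213 CPM in TrpA1 21C, with TrpA1 29C below both controls.

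Eh, which triggers the behaviour of moulting in the insect life cycle, was higher in genotypes with UAS-TrpA1 at both temperatures, a pattern noticed after its values were seen. It had 3.34, 12.0 and 11.6 CPM in R21H11 TrpA1 29C, 2.90, 0.13 and 0.14 CPM in its GAL4 control 29C and 10.8, 3.43 and 25.6 CPM in its TrpA1 21C. Over all lines, 29 of the 30 libraries with UAS-TrpA1 held at least 26 estimated counts of Eh, with a median of 65, and the exception was HC TrpA1 21C replicate 1 with 0. The 15 GAL4 control libraries held 0 to 23 counts and the 27 iso31 libraries 0 to 10. In HC, Eh had 5.01, 9.02 and 5.31 CPM in TrpA1 29C, 0, 0.32 and 0.13 CPM in GAL4 control 29C and 0, 4.05 and 3.43 CPM in TrpA1 21C. In the mean of the wake-promoting lines Eh was 3.39 ± 0.52 higher on the log2 scale in TrpA1 29C than in GAL4 control 29C (SE; adjusted p = 1.04e-05), and at 0.23 ± 0.39 against TrpA1 21C (SE; adjusted p = 0.674). In single lines the log2 value against GAL4 control 29C was 2.36 in R65H02 (adjusted p = 0.00708) and 2.77 in R60F09 (adjusted p = 0.0451), and in R21H11, HC and R85C10 it did not pass (adjusted p = 0.0702, 0.0921 and 0.225). The genotypes without UAS-TrpA1 may differ from the others at more than that transgene, which cannot be told apart here.

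**Figure D5:**
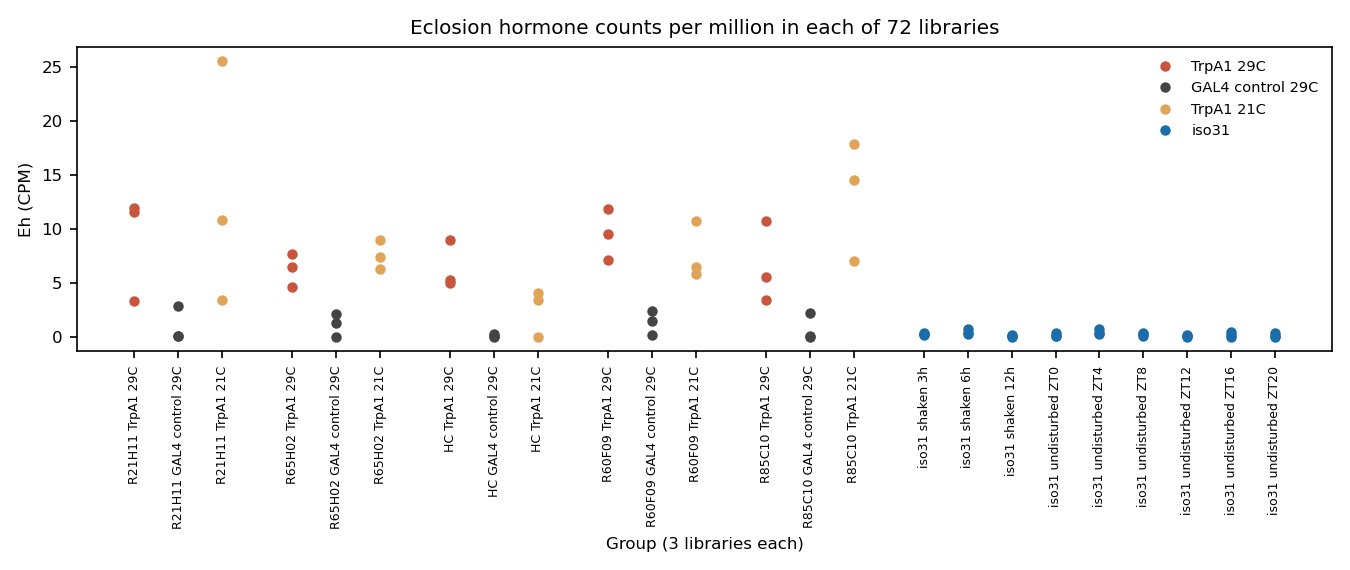
Eh in each of the 72 libraries, in CPM on an axis from 0; groups of a line run from TrpA1 29C over GAL4 control 29C to TrpA1 21C, and iso31 groups follow. Libraries with UAS-TrpA1 stand above GAL4 controls and iso31, except for 1 of the HC TrpA1 21C libraries at 0.

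The size of the change differed between the 4 wake-promoting lines for many members. An interaction test over all 33 tested members, a count chosen after the data were seen, called 16 against GAL4 control 29C and 21 against TrpA1 21C, or 48.5% and 63.6%, against 36.7% and 41.6% of all genes. Ms was among the clearest in both (adjusted p = 0.00175 and 0.002). It had 459, 679 and 554 CPM in R21H11 TrpA1 29C against 318, 329 and 356 CPM in its GAL4 control 29C, but 355, 249 and 286.5 CPM in R60F09 TrpA1 29C against 355, 371 and 337 CPM in its GAL4 control 29C. After removal of the length trend 2 and 1 of the 33 members were called, against 17.3% and 16.3% of all genes.

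Genes for the maturation, release and breakdown of neuropeptides were read beside the precursors, as a list of 17 genes, 16 of them tested. At 3, 6 and 12 h of shaking 8, 11 and 4 of them were called, against 23.6%, 46.1% and 16.3% of all genes. 7B2, the helper protein of the convertase amon, had 826, 805 and 791 CPM in undisturbed ZT0 libraries, 1138, 976 and 1116 CPM after 3 h, 1085, 1271 and 1289 CPM after 6 h, and 1068, 1180 and 1013 CPM after 12 h, and rose by 0.41, 0.56 and 0.43 on the log2 scale (adjusted p = 0.00231, 4.95e-05 and 0.00412). Pal2, an enzyme of C-terminal amidation, rose by 0.19, 0.22 and 0.21. At 6 h alone, Pal1 was higher at 0.15 (adjusted p = 0.0455). Also at 6 h alone, dimm, listed under maturation and release, and the breakdown gene Nep1 were lower, at -0.80 and -0.23 (adjusted p = 0.0362 and 0.0154). The convertase amon itself had log2 changes of -0.17 and -0.23 at 3 and 6 h (adjusted p = 0.0173 and 0.000952), and the furins Fur1 and Fur2, the vesicle proteins IA-2 and Cadps, and Nep3, a neprilysin of the peptide-degrading family, also fell at 3 and 6 h. These 6 have longer transcripts than the median gene and 7B2 a shorter one, with log2 relative lengths of 1.07 for amon, 2.32 for IA-2 and -0.99 for 7B2. Cadps and Fur1 were lower at 12 h too, at -0.22 and -0.25 (adjusted p = 0.00459 and 0.0122). Once length was allowed for, 0, 4 and 1 of the list were called in either direction. Of all genes 2.5%, 7.39% and 1.15% were called higher, a share that leaves out genes called lower and so is not a like measure. The 4 calls at 6 h were 7B2, IA-2 and svr, a carboxypeptidase, all higher, and Phm, an amidating enzyme, which was lower at -0.23 (adjusted p = 0.00996). The call at 12 h was 7B2. The direction of IA-2 at 6 h thus turned, with 0.28 under the offset (adjusted p = 0.0201) and -0.28 without it (adjusted p = 0.00181). Over the day 7B2, IA-2, amon and svr were called, against 15.1% of all genes. With the offset 7B2, amon and svr remained, IA-2 was lost (adjusted p = 0.411), and Phm and Pal2 passed (adjusted p = 0.00422 and 0.0309), against 5.16% of all genes. R21H11 TrpA1 29C had lower Nep3 against both controls, where 1.45% of all genes were called. With the offset it stood at -0.03 against GAL4 control 29C (adjusted p = 0.797) and at -0.27 against TrpA1 21C (adjusted p = 0.0296). Against both controls, R65H02 TrpA1 29C had lower amon, Fur2, IA-2 and Nep3, where 17.5% of all genes were called. For amon in R65H02 the values were 631, 594.5 and 597 CPM in TrpA1 29C, 777, 769 and 800.5 CPM in GAL4 control 29C and 887, 857 and 842 CPM in TrpA1 21C, a log2 change of -0.38 ± 0.06 and -0.50 ± 0.06 (± SE; adjusted p = 0.000212 and 7.1e-05), and none of the 4 was called against both controls with the offset.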

How the data were processed

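Whole-brain RNA was purified with PicoPure and made into NEBNext Ultra II libraries, per the labels' protocols. The authors deposited 1 table of estimated counts and 1 table of TPM, a scale corrected for transcript length, per gene, and the submitters' processing notes name kallisto 0.46.1 without its role. The genome build and the strand setting are not given in the sources used here. Of the estimated counts 89.0% were whole to within 0.02, and all were rounded. Genes passed filterByExpr, libraries were scaled by TMM, and edgeR 4.0.16 (R 4.3.3) fitted robust quasi-likelihood models with Benjamini-Hochberg adjustment over all tested genes and a threshold of 0.05. Every adjusted p comes from this test unless another tool is named. Separate fits held the shaken and ZT0 groups (12 libraries), the 6 zeitgeber times (18), each line (9) and the wake-promoting lines together (36). For the length-trend offset, each gene's mean over the libraries of a fit was subtracted from its log2 expression. The offset is a lowess (span 0.3) of these deviations on log2 relative length in each library. Alternatives were DESeq2 1.42.0, limma 3.58.1 on log2(TPM + 1), RLE scaling, no filter, a replicate block, each replicate left out, no ZT20, and cosine terms. In each comparison up to 6 members with the smallest p were named with their library values, or the nearest 2 where fewer than 2 passed, together with clock peptides and sleep peptides. The procedure was tested on simulated data. There a larger share of calls was false with DESeq2 than with edgeR, most of all over zeitgeber times. With edgeR that share was above the threshold for R65H02 TrpA1 29C against GAL4 control 29C and below it in the other comparisons simulated. Far fewer genes were changed in the simulated data than were called in the shaking and R65H02 comparisons. Members and lists were chosen with earlier results of these data known. Depth was 4175587 to 13435817 counts per library, which limits the precision of low members. Sequences and coordinates are not used here.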

Additional observations from a re-analysis of the deposited data

Results flagged for a closer look

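Dh31, Crz and Lk differed among 3, 6 and 12 h of shaking in edgeR's test of equal durations, with adjusted p of 0.00387, 0.0327 and 0.0498. They made up 9.68% of the 31 tested members, against 15.8% of all genes. With the length-trend offset Dh31 was still called (adjusted p = 0.0271), and Crz and Lk were not (adjusted p = 0.756 and 0.458), against 2.68% of all genes.

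The change in TrpA1 29C differed between the 4 wake-promoting lines by an interaction test in edgeR for 16 of 33 members against GAL4 control 29C and for 21 of 33 against TrpA1 21C. Among all genes 36.7% and 41.6% were called by the same tests. Capa against GAL4 control 29C had log2 changes of 1.52 in R21H11, 0.95 in R65H02, 0.28 in HC and -0.72 in R60F09 (adjusted p = 0.0014). Ms had 0.75, 0.65, -0.14 and -0.27 against GAL4 control 29C in the same order of lines (adjusted p = 0.00175) and -0.08, 0.02, -0.61 and -0.98 against TrpA1 21C (adjusted p = 0.001995). ITP against TrpA1 21C had -0.13, -0.09, -0.48 and -0.69 (adjusted p = 0.00222). With the length-trend offset, of these 4 results only Capa against GAL4 control 29C and ITP against TrpA1 21C were still called.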

How the results depend on the processing

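The members called at 3, 6 and 12 h of shaking numbered 9, 21 and 15. The length-trend offset gave 3, 8 and 6, the offset with a replicate block 2, 7 and 4, and limma on TPM 4 at 3 h and 9 at 12 h. Leaving out 1 replicate gave 3 to 12 at 3 h and 5 to 7 at 12 h, so calls at 12 h were fewer without replicate 1, 2 or 3. The 3 members that differed among durations became 7 in DESeq2, 1 in limma on TPM, 1 with the offset with or without the block, and 0 to 4 without 1 replicate. The 8 members that varied over the day became 13 in DESeq2, 13 with the replicate block (adding FMRFa, Mip, Ms, Pdf and Trissin, against 2471 of 9242 genes), 3 with the offset, 4 to 7 without 1 replicate, 1 without ZT20, 2 without ZT20 but with the block, and 2 with cosine terms, with or without the block. In R65H02 the 1 member against both controls became 2 in DESeq2, 3 in limma on TPM (Dh31, Nplp1 and sNPF, without Dh44), 2 with the offset, 5 with the offset and block, and 0 to 1 without 1 replicate. In R85C10 the 1 member became 0 without replicate 1, 2 or 3. HC gave 1 with offset and block, R60F09 1 with the offset and 1 with offset and block, and the wake-promoting mean 2 in limma on TPM, 4 with the offset and 5 with offset and block. The causes were not tested. Crz at 12 h turned to -0.012 with the offset and -0.0046 with offset and block. SIFa in R60F09 against TrpA1 21C turned to 0.046 in limma on TPM, 0.33 with the offset and 0.35 with offset and block. Of the values for single members and control contrasts, 550 stayed on their side of the threshold, 98 no longer passed, 15 newly passed and 14 moved. Same-numbered libraries had a mean correlation of 0.367 over zeitgeber times (lowest 0.053), against -0.182 for other numbers, and of 0.043 in the shaking fit. With the lowest under 0.1 and no label that ties them, the numbers were not taken to pair samples in the main fits. Each of the 18 zeitgeber libraries nevertheless correlated best with its own number. The main test over the day thus leaves variation shared by same-numbered libraries in its spread, and its calls are to be read beside those with the replicate block. Depth limits CNMa, CCAP, Eh and the other members under 15 TPM.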

Other observations

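CNMa after shaking had group means of 4.06, 3.07 and 2.91 CPM at 3, 6 and 12 h, against 2.15 CPM in undisturbed ZT0 brains, and 0.91 on the log2 scale at 3 h did not pass (adjusted p = 0.0525). Lk reached its highest group mean of the series, 47.8 CPM, in R60F09 TrpA1 21C, and its lowest, 9.21 CPM, in R65H02 GAL4 control 29C.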
